A study of Danio rerio with 49 samples.

Results

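Replication timing of wild-type zebrafish (Danio rerio) embryos was compared between the Shield stage and a stage before the mid-blastula transition (preMBT), that is, on either side of the activation of the zygotic genome. The comparison took the timing profiles of all whole-embryo wild-type (WT) libraries of these stages, 6 at Shield and 3 at preMBT, which made 9 of the 49 libraries of the series. Shield WT embryos were collected at 6 hours post fertilisation (hpf) and preMBT WT embryos, labelled as blastulae, at 2 to 2.5 hpf. Both groups were of the Tab5 strain and labelled wild type at rif1. Each library came from a pool of more than 100 whole embryos, labelled asynchronous and taken as S-phase material without sorting, so cells outside S phase were included in unknown share. Other groups appear below only for orientation. They are Shield and preMBT embryos homozygous for rif1 omf201, and sorted S-phase nuclei and sorted G1 libraries of WT embryos at Bud (10 hpf) and 24 hpf.

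While a cell passes through S phase, a locus that is copied early stands at the doubled copy number for longer, so the ratio of S-phase to G1 copy number reads replication timing. In many animal cells, early replication goes with open, gene-rich chromatin and late replication with gene-poor or repetitive chromatin. The embryonic cycles of zebrafish before the mid-blastula transition are fast and run largely on maternal products. Zygotic transcription starts broadly at this transition, the cycles lengthen, and gastrulation follows at about the Shield stage, which is named for the thickening that forms the embryonic organiser.

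The unit of measurement was a genomic window, usually 60 kb wide and set at 10 kb steps, and 120059 windows on 25 chromosomes had a profile. The z-score of a window is its smoothed S-to-G1 ratio relative to the mean and SD of its own library, and windows with higher z-scores replicated earlier than the bulk of the genome in that library. The log2 ratio is the same smoothed value without that scaling. Shield libraries held 7.92 to 32.2 M counts (M, mega) and preMBT libraries 13.9 to 15.3 M over 17657 windows that do not overlap. Shield libraries 1 and 2 differed by no more than sampling noise (chi-square per degree of freedom 1.05), as did 3 and 4 (0.988), and each pair was averaged and counted as 1 sample, which left 4 Shield samples. The preMBT libraries were also near sampling noise (0.929 to 1.07) and were kept as 3 samples. Nothing in the labels shows that these were separate pools, so the p-values may measure technical spread only.

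The profiles of the stages were each reproducible and were nearly unrelated to each other. Across windows the Pearson correlation averaged 0.955 between Shield samples and 0.754 between preMBT samples, against 0.0989 (0.0608 to 0.135) for pairs of a Shield and a preMBT sample. The Shield profile correlated with the mean WT profile of Bud at 0.823 and of 24 hpf at 0.611, whereas the preMBT profile gave -0.0553 and -0.157. These correlations are across windows that overlap, share a G1 reference and are smoothed, and they are given as descriptions.

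The contrast between early and late windows was larger at Shield. The SD of the log2 ratio across windows, called the amplitude here, was 0.124, 0.117, 0.119 and 0.118 in the Shield samples and 0.0413, 0.0409 and 0.0427 in the preMBT samples. No Shield sample overlapped a preMBT sample, and the means of 0.1195 ± 0.00272 (SD, n = 4) and 0.0416 ± 0.000932 (SD, n = 3) differed 2.87-fold. The exact two-sided permutation test gave p = 0.0571, the smallest that 4 against 3 samples allow. In copy number, 1 SD was 1.09-fold at Shield and 1.03-fold at preMBT. A difference of 1 z-score unit is therefore a larger copy-number difference at Shield than at preMBT. The share of cells outside S phase also sets the amplitude, and its part was not tested.

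The profiles also differed in how alike windows 1 Mb apart were. Windows 1 Mb apart on the same chromosome had z-scores correlated at 0.161, 0.159, 0.145 and 0.160 in the Shield samples, against 0.325, 0.278 and 0.293 in the preMBT samples. The means were 0.156 ± 0.00725 (SD, n = 4) and 0.299 ± 0.0240 (SD, n = 3), with an exact permutation p = 0.0571. Z-scores 1 Mb apart were thus more alike at preMBT, with no overlap between the groups. Other distances were not measured. The gradient from chromosome ends described below can also make windows 1 Mb apart alike, and its part was not tested.

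**Figure D1:**
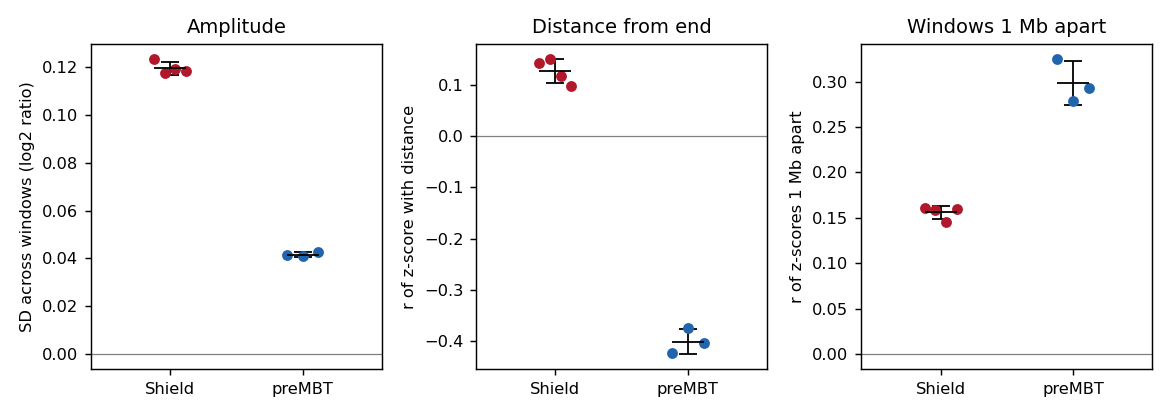
Per-sample values of the WT profiles, Shield left of preMBT. Points are samples, and horizontal bars with whiskers are the mean and SD (n = 4 and n = 3). The panels show the SD of log2 ratios across windows, the correlation of z-score with distance from the nearer chromosome end, and the correlation of z-scores 1 Mb apart. In all panels the Shield and preMBT points do not overlap.

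Most windows changed relative timing between the stages, in both directions about equally. Limma on the z-scores called 78576 windows (65.4%) at an adjusted p under 0.05 after Benjamini-Hochberg adjustment over all windows. Of all windows, 39131 (32.6%) were earlier at Shield and 39445 (32.9%) were later. A z-score is centred in each library, so a near balance of gains and losses is built into the scale. All Shield samples lay above all preMBT samples in 38420 windows (32.0%) and below them in 38274 windows (31.9%). Over all windows, the absolute difference had a median of 0.872 z-score units and the standard error a median of 0.234. Called windows had a median difference of 1.26 z-score units where earlier and -1.23 where later. On the log2 scale the medians of the same windows were 0.12 and -0.12. The edgeR quasi-likelihood test on the counts, which uses no G1 reference, called 61.9% of windows, 30.5% earlier and 31.5% later at Shield. Both tests called 57989 windows, of which 97.8% had the same direction. Each test called most windows and both used the same libraries, so a large overlap and a shared direction are partly built in. Limma on log2 ratios centred on each sample's median called 78.8% of windows, 37.7% earlier and 41.1% later at Shield.

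In z-score, windows with a gain of early timing mostly crossed from the late to the early side of the genome. Of the windows called earlier, 89.0% were early (mean z-score above 0) at Shield and 20.5% at preMBT. Of the windows called later, 14.2% were early at Shield and 72.2% at preMBT. Across windows the difference correlated with the preMBT z-score at -0.638 and with the Shield z-score at 0.695. A choice by the difference thus favours windows on opposite sides at the stages, so these shares are partly built in and are descriptions. On log2 ratios the difference correlated with the Shield value at 0.9485, so in copy number it mostly followed the Shield profile. The preMBT side of a crossing is therefore a small departure in copy number. In all, 30493 windows (25.4%) were early at Shield and late at preMBT, and 26462 (22.0%) were late at Shield and early at preMBT. Over all windows, 50.1% were early at Shield and 46.7% at preMBT.

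The later stages, which played no part in these calls, held the same side. Windows called earlier had a median z-score of -0.506 ± 0.0223 in preMBT samples, 0.899 ± 0.0171 in Shield samples, 0.938 ± 0.0196 in Bud samples and 0.841 ± 0.00710 in samples of 24 hpf. Windows called later had 0.446 ± 0.0165 in preMBT samples, -0.851 ± 0.0152 in Shield samples, -0.848 ± 0.0140 in Bud samples and -0.815 ± 0.00438 in samples of 24 hpf (SD, n = 3 preMBT samples and n = 4 of each other stage). Of the windows called earlier, 91.2% were early at Bud and 82.4% at 24 hpf. Of those called later, 17.2% were early at Bud and 21.5% at 24 hpf. Over all windows the shares were 53.3% at Bud and 50.3% at 24 hpf. The preMBT and Shield values chose these windows and are descriptions. Since the Shield profile correlated with Bud at 0.823 and with 24 hpf at 0.611, the choice by Shield values also favours the same side at these stages. Bud and 24 hpf samples were sorted nuclei rather than whole embryos, and they share the G1 reference with both stages.

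**Figure D2:**
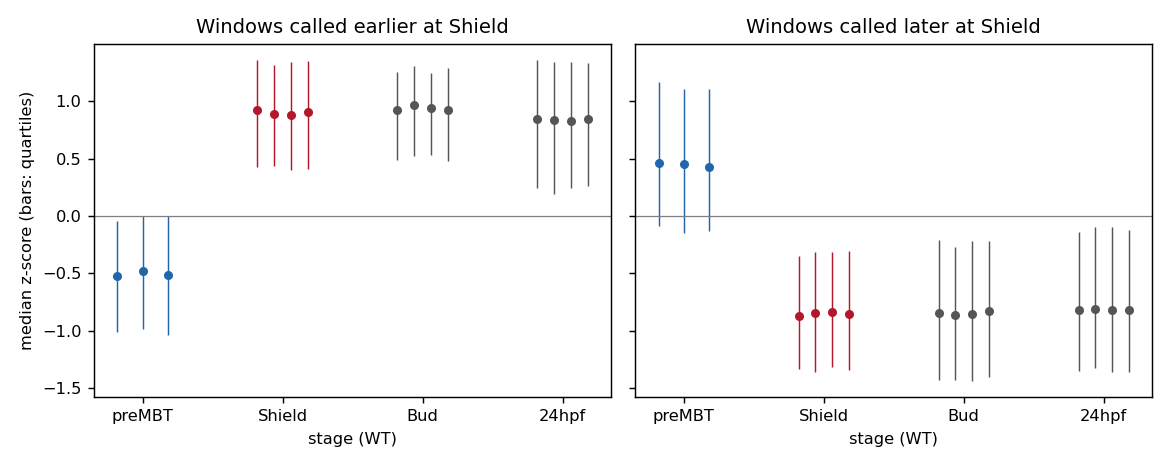
Median z-score of the windows called earlier (left panel) and later (right panel) at Shield, in every WT sample of 4 stages in developmental order. Points are samples and bars run from the lower to the upper quartile of the windows. The preMBT samples lie on the opposite side of 0 from Shield, Bud and 24 hpf in both panels.

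In z-score, the ends of chromosomes lay toward the early side relative to the interior at preMBT, and this gradient was absent or turned round at Shield. Distance was measured from a window to the nearer end of its chromosome, with the long arm of chromosome 4 left out. The Pearson correlation of z-score with this distance was 0.143, 0.150, 0.118 and 0.0979 in the Shield samples and -0.425, -0.376 and -0.404 in the preMBT samples. The mean of the Shield samples was 0.128 ± 0.0239 (SD, n = 4) and that of the preMBT samples -0.401 ± 0.0247 (SD, n = 3), a difference of 0.529 (exact permutation p = 0.0571). On the separate chromosomes, the correlation was negative in all 3 preMBT samples on 25 of 25 chromosomes. The mean correlation at Shield was negative on 6 chromosomes, and it was above that of preMBT on all 25.

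Windows within 1 Mb of an end had mean z-scores of 0.217, 0.286, 0.290 and 0.248 in the Shield samples, against 1.59, 1.34 and 1.58 in the preMBT samples. Between 3 and 5 Mb the mean was -0.196 ± 0.0438 at Shield and 0.655 ± 0.0335 at preMBT. The stages were closest between 10 and 15 Mb, at -0.229 ± 0.0108 at Shield and -0.207 ± 0.0140 at preMBT (difference -0.0222, exact permutation p = 0.114). In windows 20 to 40 Mb from an end the mean was 0.253 ± 0.0274 at Shield and -0.395 ± 0.0333 at preMBT (SD, n = 4 and n = 3 throughout). In z-score, which is scaled by each library's own SD, the range of the bin means was wider at preMBT than at Shield, and at Shield the outermost and the innermost windows both had means above 0.

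**Figure D3:**
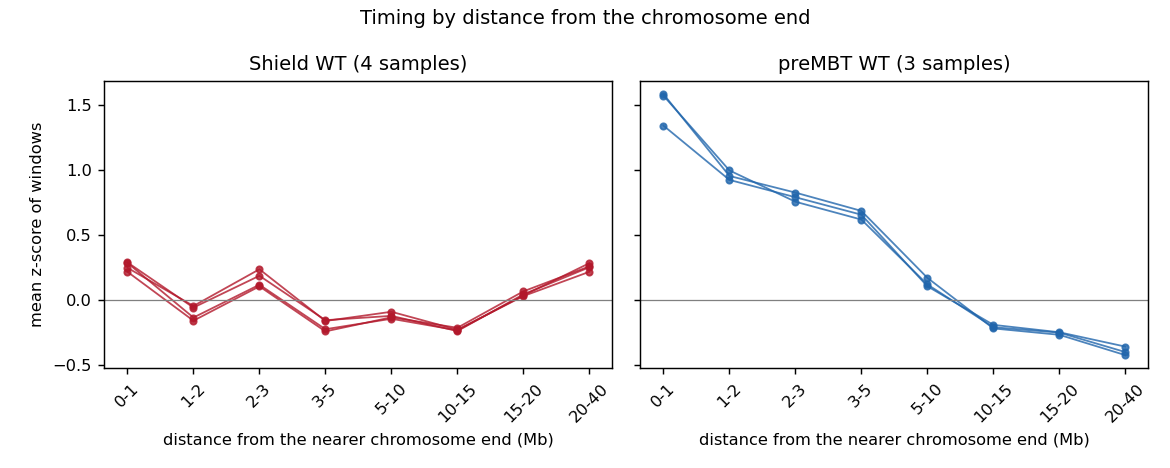
Mean z-score of windows by distance from the nearer chromosome end (Mb), Shield WT on the left and preMBT WT on the right. Each line is a sample. The preMBT lines start between 1.34 and 1.59 in the outer 1 Mb and end near -0.395 at 20 to 40 Mb, while the Shield lines stay between -0.242 and 0.290.

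The calls followed the same pattern. Of the windows within 1 Mb of an end, 4.38% were called earlier at Shield and 71.4% later, against 32.6% and 32.9% of all windows. In windows 20 to 40 Mb from an end, 52.6% were called earlier and 14.5% later. With edgeR on counts the contrast near the ends was smaller, at 22.2% earlier and 36.4% later within 1 Mb, and at 42.8% and 20.5% between 20 and 40 Mb. On log2 ratios centred on each sample's median, windows within 1 Mb had a mean of 0.0255 at Shield and 0.0633 at preMBT. Windows at 20 to 40 Mb had 0.0249 at Shield, nearly the same as within 1 Mb, and -0.0147 at preMBT. On this scale the lowest bin mean was -0.033 at Shield, at 10 to 15 Mb, and -0.0147 at preMBT, at 20 to 40 Mb. The ranges over distance were thus closer to each other than in z-score.

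Of the 49 chromosome ends measured over their outer 5 Mb, 47 had a mean z-score above 0 in every preMBT sample. In 44 ends all Shield samples lay below all preMBT samples, and in 2 ends, the starts of chromosomes 4 and 22, all lay above. Of all single windows, 31.9% lay below in this way and 32.0% above. Interior stretches of 5 Mb were not counted, so how far the count is particular to ends was not tested. The most negative difference among the ends was at the start of chromosome 17, with -0.650 (range -0.696 to -0.602) at Shield and 2.03 (1.96 to 2.16) at preMBT. The end of chromosome 9 followed, with -0.388 (-0.472 to -0.185) at Shield and 1.66 (1.45 to 1.79) at preMBT. The start of chromosome 4 had 0.901 (0.861 to 0.933) at Shield and 0.416 (0.371 to 0.451) at preMBT. The far end of chromosome 11 differed little, with 0.842 (0.716 to 0.980) at Shield and 0.846 (0.548 to 1.00) at preMBT.

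The contrast between ends and interior was also taken from the counts before any division by G1 DNA. Shield and preMBT share the G1 reference, which largely cancels between them, so these counts are no separate support for the difference. The log2 ratio of the mean count per window in the outer 5 Mb to that in the rest was -0.0404 ± 0.00580 (SD, n = 6 libraries) at Shield and 0.0135 ± 0.00214 (SD, n = 3) at preMBT. The G1 libraries of WT embryos, sorted for G1 DNA content, gave -0.0155 ± 0.00172 in Bud samples and -0.0433 ± 0.00460 in 24 hpf samples (SD, n = 4 each). The G1 libraries of the later stages thus also differed between themselves, and what sets this level in G1 DNA was not tested. The Shield level lay near that of the 24 hpf G1 libraries, and the preMBT level lay above both G1 groups. How much of the contrast between Shield and preMBT reflects replication timing was not tested. The 5 Shield libraries of rif1 omf201 embryos made 4 samples throughout, since libraries 1 and 2 were averaged. In these embryos the correlation of z-score with distance was 0.0902 ± 0.0430 (SD, n = 4) at Shield and -0.463 ± 0.0252 (SD, n = 3) at preMBT. In WT S-phase nuclei of Bud and 24 hpf embryos it was 0.102 ± 0.00929 and 0.172 ± 0.00867 (SD, n = 4 each).

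Classes of windows were compared by their mean z-score. The outer 5 Mb had -0.0319 ± 0.0448 at Shield and 0.875 ± 0.0322 at preMBT, a difference of -0.907. The outer 1 Mb, contained in it, differed by -1.24. The rest of the genome, without the long arm of chromosome 4, had 0.00606 ± 0.00636 at Shield and -0.199 ± 0.00900 at preMBT, a difference of 0.205. The exact permutation p was 0.0571 for each class, before and after Benjamini-Hochberg adjustment over the classes. On log2 ratios centred on the median the difference of the rest was 0.00170 (exact permutation p = 0.229).

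The long arm of chromosome 4, a region rich in repeats and late in replication in later embryos, was not uniformly late or early at either stage. Its 1790 windows, taken from position 28000000 of GRCz11, had mean z-scores of 0.118, 0.219, -0.233 and -0.0421 in the Shield samples, against 1.34, 1.14 and 1.66 in the preMBT samples. Of these windows 15.1% were called earlier at Shield and 61.4% later. Without windows wider than 60 kb, which are common there, the difference of -1.36 z-score units became -0.467. The first segment of the arm, from 28 to 32 Mb, lay higher at Shield: its mean was 1.01 ± 0.0853 at Shield and 0.00295 ± 0.460 at preMBT, and 60.3% of its windows were called earlier. The segment from 52 to 56 Mb had -0.0355 ± 0.362 at Shield and 3.15 ± 0.507 at preMBT, and 87.7% of its windows were called later. At 60 to 64 Mb the means were -0.213 ± 0.289 at Shield and -0.690 ± 0.326 at preMBT, and 62.6% were called earlier (SD, n = 4 and n = 3). At 24 hpf each of these segments had a mean below -1.16, as part of an arm mean of -1.34 ± 0.0451 (SD, n = 4).

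Most chromosomes differed in mean z-score between the stages. Limma on the 25 chromosome means called 19 (76.0%), with 8 (32.0%) earlier and 11 (44.0%) later at Shield, and p-values adjusted over the 25. Chromosomes 2, 3, 5, 6, 7, 16, 19 and 22 were earlier. Chromosomes 1, 9, 10, 12, 14, 15, 17, 18, 20, 24 and 25 were later. Chromosomes 4, 8, 11, 13, 21 and 23 did not pass the test. Shield and preMBT samples overlapped on chromosomes 4, 11, 13, 21 and 23 and on no other, and the exact permutation test on a single chromosome cannot go below 0.0571.

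On whole-chromosome z-scores chromosome 3 rose most, though not on centred log2 ratios, where chromosome 22 had 0.0200 and chromosome 3 had 0.0194, nor without wide windows or the long arm, where chromosome 4 did. Chromosome 3 had mean z-scores of 0.175, 0.145, 0.122 and 0.129 in the Shield samples and -0.209, -0.295 and -0.280 in the preMBT samples. Its difference was 0.404 ± 0.0265 (SE; limma adjusted p = 9.85e-07), and 44.9% of its windows were called earlier and 24.3% later. Chromosome 22 followed with a difference of 0.353 ± 0.0524 (adjusted p = 0.000161 by limma) and chromosome 16 with 0.335 ± 0.0301 (adjusted p = 6.50e-06 by limma). Of the windows of chromosome 16, 47.8% were called earlier, more than on any other whole chromosome. Chromosome 4 had 40.8% as a whole, but its segments outside the long arm had 41.5% to 75.8%. Chromosomes 3 and 16 were on average late at preMBT, and chromosome 16 came close to the genome mean at Shield, at 0.0366 ± 0.0496 (SD, n = 4) against -0.298 ± 0.0303 (SD, n = 3).

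Chromosome 18 fell most, with -0.282, -0.312, -0.262 and -0.315 in the Shield samples and 0.194, 0.139 and 0.120 in the preMBT samples. The difference was -0.444 ± 0.0252 (SE; limma adjusted p = 5.39e-07), and 47.6% of its windows were called later and 20.5% earlier. Chromosome 12 had a difference of -0.429 ± 0.0403 and chromosome 24 of -0.351 ± 0.0318, each with a limma adjusted p = 6.50e-06. Chromosome 12 fell slightly more than 18 without Shield sample 5 (-0.459 against -0.454) or without Shield sample 6 (-0.440 against -0.436). So it did with 6 Shield libraries as separate samples (-0.449 against -0.445), and under the other settings chromosome 18 fell more. At 24 hpf chromosome 24 was near the genome mean, with 0.0181 ± 0.00830, while chromosome 12 had -0.205 ± 0.0287 (SD, n = 4 each).

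On centred log2 ratios 20 chromosomes were called, and 16 were called on both scales with the same sign. Chromosome 7 was called on both with opposite signs, at 0.211 z-score units and -0.00904 on the log2 scale, so no direction is given for it beyond the z-score. The calls of chromosomes 2 and 25 were lost on the log2 scale, with limma adjusted p = 0.865 and 0.312. Chromosome 4 had no called difference as a whole (-0.0328, limma adjusted p = 0.598), but without its long arm the difference was 0.840 (limma adjusted p = 1.62e-10). Without windows wider than 60 kb chromosomes 1, 9, 14 and 20 lost their calls, with limma adjusted p = 0.302, 0.282, 0.901 and 0.448. Under the same setting, chromosomes 4, 8, 13, 21 and 23 passed the test, all earlier at Shield, with differences of 0.695, 0.0618, 0.0581, 0.116 and 0.125 (limma adjusted p = 1.69e-08, 0.00774, 0.0453, 0.0101 and 0.00709), though on centred log2 ratios chromosome 8 had -0.00859 and chromosome 13 had -0.0104. The z-scores were not centred again without wide windows. Their median difference over windows was then 0.0862, against 0.000191 over all windows. A shift common to the windows kept can thus enter these lost and gained calls, and its part was not tested. Without preMBT sample 2 chromosome 1 had a difference of -0.0624 (limma adjusted p = 0.0589). Chromosome 21 passed the test without Shield sample 1+2 (0.0861, limma adjusted p = 0.0287) or without preMBT sample 3 (0.0887, limma adjusted p = 0.0447). Chromosome 23 passed it without Shield sample 5 (0.0902, limma adjusted p = 0.0207) or without preMBT sample 1 (0.0924, limma adjusted p = 0.0431).

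**Figure D4:**
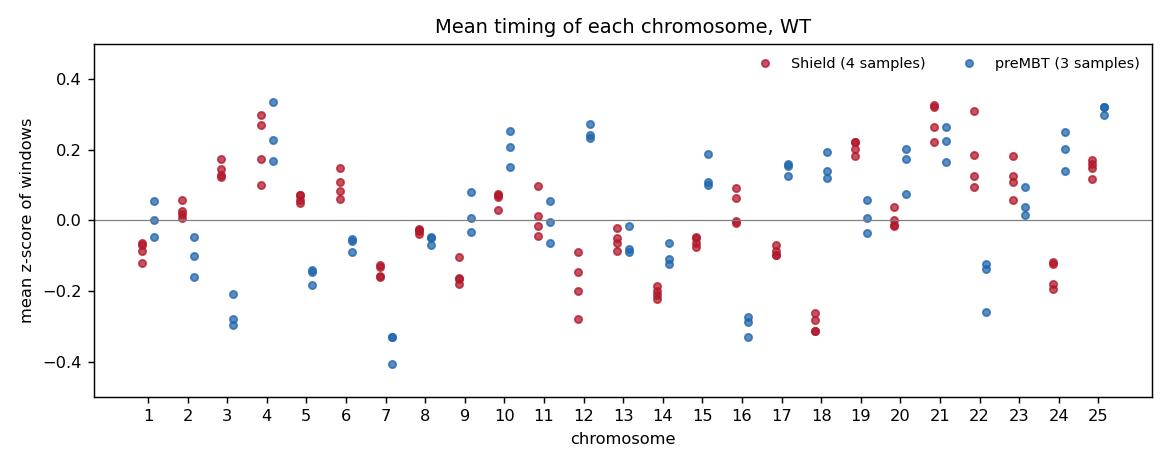
Mean z-score of the windows of each chromosome in every WT sample, with Shield to the left of preMBT for each chromosome. Points are samples (4 at Shield, 3 at preMBT). The samples of chromosomes 3, 16 and 22 lie higher at Shield, and those of chromosomes 12, 18 and 24 lie lower.

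Called windows formed long stretches. The windows overlap and are smoothed, and 65.4% of them were called, so stretches of some length are built in. Successive called windows with the same direction, with starts at most 20 kb apart, were joined into runs. There were 1300 runs earlier at Shield, with a median length of 270 kb, and 2519 runs later at Shield, with a median of 180 kb. The longest was 2530 kb among the earlier runs and 1690 kb among the later runs, and 70 earlier and 10 later runs reached 1 Mb. Of the windows called earlier, 37843 of 39131 were at most 60 kb wide, and of those called later, 32636 of 39445. Starts more than 20 kb apart split a run, so run counts and lengths also reflect the spacing of windows. The part of this in the contrast between directions was not tested. The 6 longest runs in each direction are described next, with coordinates on GRCz11 as deposited. Their values at Shield and preMBT chose them and carry no test of their own.

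The longest run earlier at Shield was chr16:23480000-26010001, of 240 windows. Its mean z-scores were 1.15, 0.975, 0.832 and 0.902 in the Shield samples and -0.659, -0.652 and -0.804 in the preMBT samples. All its Shield values were above 0 and all its preMBT values below. The mean log2 ratio was 0.11 ± 0.02 at Shield and -0.03 ± 0.0045 at preMBT (SD, n = 4 and n = 3). The run stayed early in the later stages, with 0.760 ± 0.0862 in Bud samples and 0.660 ± 0.0668 in 24 hpf samples (SD, n = 4 each). A second stretch of the same chromosome, chr16:41370000-43420001, had 1.22 ± 0.0922 at Shield and -0.177 ± 0.226 at preMBT.

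The run chr22:9740000-12260001 had mean z-scores of 1.85, 1.46, 1.48 and 1.59 in the Shield samples and 0.107, -0.307 and 0.106 in the preMBT samples. It was near the genome mean at preMBT and far on the early side at Shield. Run chr9:32950000-35140001 had 0.873 ± 0.0589 at Shield and -0.380 ± 0.137 at preMBT, and run chr14:30390000-32300001 had 1.43 ± 0.0691 at Shield and -0.501 ± 0.231 at preMBT. The run on chromosome 14 kept its level, with 1.43 ± 0.0803 at Bud and 1.37 ± 0.0442 at 24 hpf. Run chr3:15070000-16920001 had 1.70 ± 0.0894 at Shield and -0.0901 ± 0.165 at preMBT, and its level was lower at later stages, with 0.996 ± 0.133 in Bud samples and 0.585 ± 0.0415 in 24 hpf samples (SD, n = 3 at preMBT and n = 4 at the other stages throughout).

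The longest run later at Shield, chr19:35720000-37410001, held 163 windows. Mean z-scores were -0.889, -0.895, -0.940 and -0.912 in the Shield samples and 0.569, 0.244 and 0.207 in the preMBT samples. Its Shield values lay close together, while its preMBT values were spread more widely and were all above 0. It went on to -1.50 ± 0.311 in Bud samples and -1.54 ± 0.0543 in 24 hpf samples (SD, n = 4 each).

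Run chr18:9260000-10670001 had -1.64 ± 0.0377 at Shield and -0.0883 ± 0.286 at preMBT, and run chr23:7860000-9160001 had -1.64 ± 0.0892 at Shield and -0.153 ± 0.162 at preMBT. At 24 hpf these 2 runs had -1.15 ± 0.0849 and -1.04 ± 0.0919. Run chr15:38140000-39310001 had -0.992 ± 0.222 at Shield and -0.0407 ± 0.223 at preMBT. It rose to -0.700 ± 0.1535 at Bud and -0.297 ± 0.0870 at 24 hpf. Unlike the runs on chromosomes 18 and 23, chr9:7220000-8590001 was late only in part of development. Its mean z-score was 0.0603 ± 0.225 in preMBT samples, -1.04 ± 0.0666 in Shield samples, -0.914 ± 0.0643 in Bud samples and 0.0511 ± 0.125 in samples of 24 hpf. Run chr22:31770000-33010001 had -0.449 ± 0.0830 in preMBT samples, -1.60 ± 0.191 in Shield samples, -0.165 ± 0.126 in Bud samples and -0.558 ± 0.185 in samples of 24 hpf (SD, n = 3 at preMBT and n = 4 at the other stages). Its lowest value was thus at Shield.

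EdgeR on counts called 65.0% to 97.8% of the windows of the earlier runs and 60.7% to 97.8% of those of the later runs, in the same direction. Of all windows it called 30.5% earlier and 31.5% later. The runs were chosen because all their windows were called in the same libraries, so these shares are descriptions. The share was above 90% in the runs on chromosome 14, chromosome 3, chromosome 18, chromosome 23 and the first run on chromosome 22. Each sample's mean at the same distance from a chromosome end was also subtracted. After this, 100% of the windows of chr22:9740000-12260001, chr16:41370000-43420001 and chr18:9260000-10670001 were still called. The lowest shares were 45.5% of chr15:38140000-39310001 and 52.3% of chr9:32950000-35140001. Of all windows, 62.0% were called in either direction after this subtraction.

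**Figure D5:**
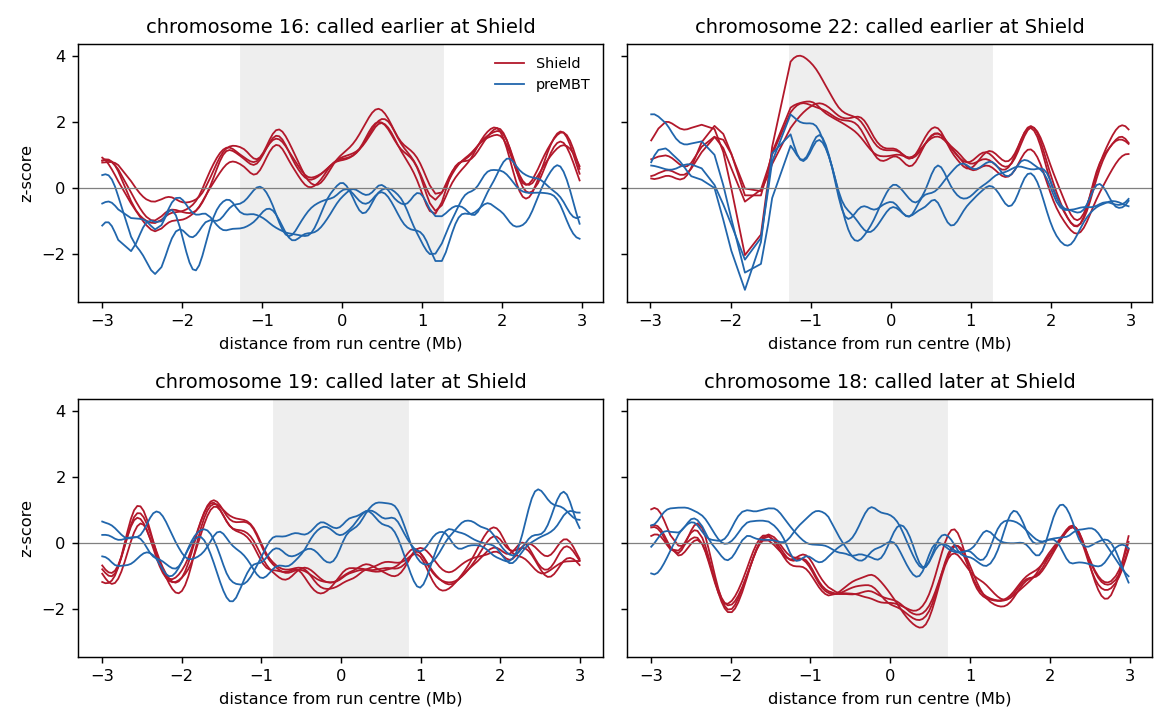
Z-score along the 2 longest runs called earlier (upper panels) and the 2 longest called later (lower panels) at Shield, by distance from the centre of the run (Mb). Red lines are Shield samples, blue lines are preMBT samples, and the grey band marks the run. Within the bands, the mean of the Shield lines lies above that of the preMBT lines in the upper panels and below it in the lower panels.

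The largest single differences were found in windows that were extreme at preMBT. The window chr7:54710000-54770001 had z-scores of 1.08, 1.07, 0.995 and 0.978 in the Shield samples and -3.45, -3.70 and -3.28 in the preMBT samples. It was early in every Shield sample and far on the late side in every preMBT sample (difference 4.51 ± 0.194, SE; limma adjusted p = 5.25e-08). It stayed early, with 1.27 ± 0.242 in Bud samples and 1.68 ± 0.0373 in 24 hpf samples (SD, n = 4 each). The windows chr2:35850000-35910001, chr19:25940000-25980001 and chr16:35550000-35610001 had the same form, with 1.81 ± 0.190, 0.658 ± 0.196 and 0.704 ± 0.282 at Shield and -2.39 ± 0.110, -3.47 ± 0.219 and -3.29 ± 0.537 at preMBT (SD, n = 4 and n = 3).

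The window with the largest rise in z-score, chr3:2700000-2800001, did not become earlier in copy number. Its z-scores were -5.06, -2.86, -4.76 and -5.51 in the Shield samples and -12.6, -13.4 and -11.8 in the preMBT samples. On the log2 scale it had -0.69 ± 0.22 at Shield and -0.66 ± 0.03 at preMBT (SD, n = 4 and n = 3), and the edgeR adjusted p on counts was 0.245. It was among the latest-scoring windows at both stages, and the smaller amplitude at preMBT gives the same log2 value a larger z-score. Its median count in the WT G1 libraries was 1.48 times the library mean, and the part of this in the low ratio was not tested. In rif1 omf201 embryos, by contrast, its z-score was -0.109 ± 1.28 at Shield (SD, n = 4) and 2.85 ± 0.836 at preMBT (SD, n = 3). The window chr4:57440000-57520001 had -0.0759 ± 1.15 at Shield and -4.06 ± 2.27 at preMBT, with a preMBT sample at -1.49 that overlapped no Shield sample but stood far from the other preMBT samples.

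Among the windows with the largest falls, 3 were within 100 kb of a chromosome end. The first window of chromosome 13, chr13:0-60001, had 0.0934, -0.186, 0.507 and 0.191 in the Shield samples and 6.46, 4.77 and 5.13 in the preMBT samples (limma adjusted p = 3.00e-07). It was near the genome mean at Shield and far on the early side at preMBT. The first window of chromosome 16, chr16:0-60001, had -1.06 ± 0.670 at Shield and 3.79 ± 1.91 at preMBT, and the last of chromosome 20, chr20:55130000-55201332, had 0.916 ± 0.784 and 5.77 ± 1.81 (SD, n = 4 and n = 3). Farther from an end, chr3:4610000-4710001 had 0.661, -0.0248, -0.107 and 0.974 in the Shield samples and 8.96, 7.93 and 8.97 in the preMBT samples, a difference of -8.25 ± 0.324 (SE; limma adjusted p = 3.71e-08). The windows chr4:51830000-51990001 and chr7:2760000-2960001 had -0.594 ± 1.24 and -1.85 ± 0.561 at Shield, against 7.19 ± 0.790 and 3.19 ± 0.609 at preMBT (SD, n = 4 and n = 3). Falls were also present on the log2 scale in all 6 windows, from -0.12 on chromosome 20 to -0.37 on chromosome 7.

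Embryos homozygous for rif1 omf201, an allele of the gene for Rif1, a factor known in yeast and mammalian cells to delay the replication of late regions, gave a set of profiles made from other libraries and another G1 reference. In the windows called earlier in WT, the median difference between Shield and preMBT was 1.09 z-score units in omf201, and 92.1% of these windows were higher at Shield. In the windows called later in WT the median in omf201 was -0.991, and 8.45% were higher at Shield. Over all windows the median was -0.0146, and 49.5% were higher at Shield. Some regions that were lower at Shield in WT had a smaller fall or none in omf201. They were singled out after their values were seen. The long arm of chromosome 4 had -0.0624 ± 0.216 at Shield (SD, n = 4) and -0.200 ± 0.124 at preMBT (SD, n = 3) in omf201. The window chr7:2760000-2960001 had -0.911 ± 0.789 at Shield and -0.790 ± 1.99 at preMBT in omf201. It was still lower at Shield, by less than the SD of either stage. In omf201, chr3:4610000-4710001 had -0.408 ± 0.929 at Shield and 1.79 ± 0.280 at preMBT, a smaller fall than in WT. The window chr4:51830000-51990001 had -2.87 ± 1.23 at Shield and -0.608 ± 1.71 at preMBT, also a smaller fall. By contrast, omf201 kept high preMBT values in chr13:0-60001 (1.36 ± 1.165 at Shield, 6.19 ± 1.32 at preMBT) and chr16:0-60001 (-1.61 ± 0.734 and 3.97 ± 0.801). In the same embryos chr20:55130000-55201332 had -2.22 ± 0.847 at Shield and -3.47 ± 0.132 at preMBT (SD, n = 4 and n = 3). The run chr15:38140000-39310001 had -1.15 ± 0.153 at Shield (SD, n = 4) and -1.18 ± 0.122 at preMBT (SD, n = 3) in omf201. Whether the genotypes differ in the step between these stages was not tested here.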

How the data were processed

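Genomic DNA of zebrafish embryo pools was sequenced, and reads were processed by the submitters with fastp, BWA, Picard and RepliTimer 1.0.11 on GRCz11, per the submitters' processing notes. The deposited counts are whole reads per window for each library, without normalisation. The deposited ratio divides a library's mean-scaled count by a G1 reference, the log2 values are those of the smoothed ratio, and the z-score is a score of that smoothed ratio, scaled within each library by the authors. Depth was 7.92 to 32.2 M counts (M, mega) at Shield and 13.9 to 15.3 M at preMBT over 17657 windows that do not overlap, so counting error alone was 2.34% to 4.72% of a window before smoothing. Reads carried no molecular identifiers, and this covers counting error only.

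From these values, z-scores were fitted per window with limma 3.58.1 in R 4.3.3 (lmFit, eBayes), with Benjamini-Hochberg adjustment over 120059 windows and a threshold of 0.05. Chromosome means were fitted likewise, and single values per sample were tested by exact two-sided permutation. Alternatives used edgeR 4.0.16 and DESeq2 1.42.0 on the counts, other scales, window filters and left-out samples. The limma and edgeR window fits were tested on simulated data. The simulated windows were independent and few were changed, so overlap, smoothing and widespread change were not covered. The named runs and windows are the 6 longest runs and the 6 windows with the largest difference in each direction, at most 1 window per chromosome. The comparison, its members and the lists were chosen with earlier results of these data known, and the distance from chromosome ends was added after seeing the data. No genes were placed in windows, because the annotation at hand was on another build.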

Additional observations from a re-analysis of the deposited data

Results flagged for a closer look

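In the correlation of z-scores 1 Mb apart, Shield sample 5 had 0.145, against 0.159 to 0.161 in the other 3 Shield samples. This gap was 0.870 of the range of the group, above Dixon's critical value for 4 samples. It was the only such gap among 56 groups of values tested, and chance alone marks about 5% of groups. All Shield samples, with or without this sample, lay below the preMBT values.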

How the results depend on the processing

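The percent of windows called was 65.4%, and it was 43.6% when a difference of at least 1 z-score unit was also asked, 50.4% with DESeq2 and 61.9% with edgeR (with or without windows of low count), 78.8% on log2 ratios (centred or not), 62.6% on unsmoothed ratios, 65.1% without wide windows, 65.5% on windows that do not overlap, 65.6% without the long arm of chromosome 4, 71.2% with 6 Shield libraries as separate samples and 74.5% in a fit of all WT samples. An alternative added after seeing the data gave 62.0% after subtracting the mean at each distance from an end. A fit with the preMBT libraries as 1 sample, also added later, takes its spread from the Shield samples alone. It cannot show whether the calls would hold if preMBT were 1 pool, and no percent is given for it. Leaving out 1 sample at a time gave 59.1% to 66.8% of windows, 18 to 20 called chromosomes, differences in amplitude of 0.0766 to 0.0786 and in the correlation with distance of 0.517 to 0.542. With the replicate number as a block 60.2% were called. Deviations of same-numbered libraries correlated at 0.00347 to 0.0127, which shows no pairing. It cannot exclude pairing either, since preMBT libraries near sampling noise leave little to correlate. With 6 Shield libraries as separate samples, which repeats near-identical libraries, the exact permutation p was 0.0238 for the differences in amplitude (0.0789), correlation with distance (0.534), the long arm of chromosome 4 (-1.31), the outer 1 Mb (-1.25), the outer 5 Mb (-0.919) and the rest (0.207). The sign of the chromosome 4 mean turned to 0.695 without wide windows and to 0.840 without its long arm. On centred log2 ratios chromosome 7 turned to -0.00904, chromosome 8 to -0.00859 and chromosome 13 to -0.0104, and the cause was not tested. Corrections for GC content, gene density and gene lists were not run, since no genome or annotation of the files' build was used here. The number of samples limits the precision, since 4 against 3 cannot give a permutation p below 0.0571.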
